A study of Homo sapiens with 12 samples.

Results

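Cyclins and their kinases were described here across A549 and H1792, established human lung adenocarcinoma cell lines with MDM2 amplification. The genes were taken by symbol, matched to the Ensembl identifiers of the count table: CCND1, CCND3, CDK4 and CDK6 of G1, CCNE1 and CCNE2 of the G1/S step with CDK2, which pairs with cyclins E and A, and CCNA2, CCNB1 and CDK1 of S, G2 and M. Of these 10 genes, 9 were found among the 20595 genes of the table, and CCNA2 was not analysed here. A549 was taken as p53 wild type and H1792 as p53 mutant. Each line received either DMSO or RG7112, a small molecule of the nutlin family that blocks binding of MDM2 to p53, at 1 µM for 48 h, which gave 4 groups of 3 replicates and 12 RNA-seq libraries in all. Nothing in the sources used here says that replicates came from separate cultures, so p-values measure the spread between these samples, which may be technical. Each line stands for its p53 status alone, so p53 status and every other difference between A549 and H1792 cannot be told apart.

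Cyclins are regulatory subunits that switch on cyclin-dependent kinases. D cyclins with CDK4 or CDK6 begin the phosphorylation of the retinoblastoma protein in G1, E cyclins with CDK2 complete it and start DNA replication, and cyclin B1 with CDK1 drives entry into mitosis. When p53 is active it raises p21, the product of CDKN1A, which inhibits cyclin-kinase complexes, and many genes of S phase and mitosis are then transcribed less.

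The libraries held 2011916 to 6218825 estimated counts, so that 3 counts were worth 0.463 to 1.43 CPM, counts scaled to library size by TMM. As a check of the drug, MDM2, a p53 target, had a median of 9.53 CPM with DMSO and 72.6 CPM with RG7112 in A549, against medians of 11.98 and 10.7 CPM in H1792. Replicate 3 of both A549 treatments stood apart: on the second principal component it lay at -23.4 with DMSO and at -55.1 with RG7112, while replicates 1 and 2 lay between 4.81 and 38.5. H1792 libraries with DMSO lay between -60.3 and -37.4 on that component, and those with RG7112 between 30.7 and 64.2. The lung lineage marker sum was at most 6.23 CPM in any library. The epithelial marker sum was 14440 to 18920 CPM in A549 with DMSO and 17060 to 24000 CPM with RG7112. In H1792 it was 1814 to 2181 and 1067 to 1334 CPM, and the treatments did not overlap. KRT8 made up most of the A549 sum. With DMSO, EPCAM alone of these markers was higher in H1792, at 1.305 to 3.87 CPM against 0.249 to 1.25 CPM in A549. The mesenchymal and fibroblast marker sum, mostly VIM, was 3070 to 3281 CPM in A549 with DMSO and 2700 to 2775 CPM with RG7112. In H1792 it was 12460 to 12940 and 10860 to 11330 CPM. Of the leukocyte markers, CD3E was at 0 in every library and PTPRC at most at 0.17 CPM, while CD68 ranged from 10.7 to 34.9 CPM in A549 with DMSO and from 44.2 to 103.7 CPM with RG7112. The part of these markers in the results was not tested. In these mixed populations, fewer cells in a phase and less RNA per cell cannot be told apart.

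For 3 members, the 250 bases before a RefSeq transcription start are shown. They were chosen because CCNB1 and CDK1 had the lowest log2 fold changes of the members in A549 and CCNE1 the one nearest to 0. The sequences come from RefSeq, build GRCh38.p14, 5′ to 3′ along the gene's strand. The gene starts printed below, from GENCODE v29, lie inside these windows, so part of each window lies after them. Capitals mark the CCAAT box (CCAAT), the core of the cell cycle homology region (TTTGAA) and E2F cores (TTTGGCGC, TTTCGCGC, TTTCCCGC or TTTGCCGC), on either strand.
CCNB1 (chr5:69166900-69167149, plus strand): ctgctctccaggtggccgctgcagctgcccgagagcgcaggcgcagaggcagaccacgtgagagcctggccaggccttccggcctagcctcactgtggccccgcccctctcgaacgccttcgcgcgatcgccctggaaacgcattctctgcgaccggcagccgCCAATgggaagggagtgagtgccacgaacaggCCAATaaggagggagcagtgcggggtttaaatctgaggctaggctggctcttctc
CDK1 (chr10:60778228-60778477, plus strand): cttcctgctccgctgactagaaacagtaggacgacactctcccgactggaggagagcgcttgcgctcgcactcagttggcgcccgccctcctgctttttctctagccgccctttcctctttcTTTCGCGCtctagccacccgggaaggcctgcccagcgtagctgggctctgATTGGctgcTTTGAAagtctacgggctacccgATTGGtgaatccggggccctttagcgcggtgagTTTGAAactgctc
CCNE1 (chr19:29811741-29811990, plus strand): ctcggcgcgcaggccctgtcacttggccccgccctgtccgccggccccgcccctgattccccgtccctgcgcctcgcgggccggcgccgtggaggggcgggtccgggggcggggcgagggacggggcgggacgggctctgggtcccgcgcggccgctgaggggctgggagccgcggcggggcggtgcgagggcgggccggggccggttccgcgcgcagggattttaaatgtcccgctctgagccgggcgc
The CCNB1 window held 2 CCAAT boxes and neither of the other capitalised motifs. The CDK1 window held 2 CCAAT boxes, 2 TTTGAA cores and 1 E2F core. A second CDK1 window, which starts further upstream and overlaps it, ends just before the GENCODE start of CDK1. That window held 1 CCAAT box, 1 TTTGAA core and no E2F core. The CCNE1 window held none of the 3. The GC box GGGCGG, which is not capitalised, matched 7 times in the CCNE1 window, 1 time in that of CCNB1 and 2 times in that of CDK1. Over all 35116 RefSeq windows of the same length, 32.0% held a CCAAT box, 13.3% TTTGAA, 2.79% an E2F core and 42.6% a GC box. A match describes the letters and is no evidence of binding, and matches that overlap one another were counted separately. Windows of 6 of the 9 members were searched, and CCND1, CCNE2 and CDK2 were not part of the search. The CDK4 and CDK6 windows held none of the 3 capitalised motifs. The CCND3 windows held 0, 1 and 1 CCAAT boxes and neither of the others. In A549 the log2 fold change was -0.81 for CDK4, 0.59 for CDK6 and 0.70 for CCND3. Whether the motifs go with the responses was not tested.

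Cyclin B1 and its kinase were the members that fell most in A549. CCNB1 (ENSG00000134057, chr5:69167010-69178245) stood at 275, 247 and 273 CPM with DMSO and at 22.7, 33.3 and 27.4 CPM with RG7112 in the 3 replicates of each. All treated libraries lay well below all control libraries. CDK1 (ENSG00000170312, chr10:60778331-60794852), the mitotic kinase, stood at 18.1, 22.3 and 15.9 CPM with DMSO and at 0.463, 0.475 and 0 CPM with RG7112. The treated values rest on 3, 1 and 0 counts, 4 in all against 253 in the controls, a ratio of 59.2 with a 95% exact binomial interval of 22.8 to 219 that covers counting error only. The fitted log2 fold change was -3.27 (SE 0.181, adjusted p = 0.000326) for CCNB1 and -5.76 (SE 0.606, adjusted p = 0.0024) for CDK1, and both were differentially expressed genes (DEGs, with an adjusted p under 0.05 and a log2 fold change beyond 1 in either direction).

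CDK2 and CDK4 were also lower in A549 with RG7112. CDK2 (ENSG00000123374, chr12:55966769-55972784) stood at 55.8, 52.6 and 49.7 CPM with DMSO and at 23.6, 19.5 and 11.9 CPM with RG7112, and its log2 fold change of -1.51 (SE 0.278, adjusted p = 0.0193) made it a DEG. That call was lost without RG7112 replicate 2 (-1.55, adjusted p = 0.07), DMSO replicate 1 (-1.48, adjusted p = 0.0774) or DMSO replicate 2 (-1.52, adjusted p = 0.0778), with log2 fold changes close to that of all libraries. CDK4 (ENSG00000135446, chr12:57747727-57756013), one of the pair of kinases that D cyclins activate, stood at 223, 269 and 255 CPM with DMSO and at 147, 136 and 142 CPM with RG7112. It passed the test at a log2 fold change of -0.81 (SE 0.127, adjusted p = 0.0111), less than a DEG requires, and missed without RG7112 replicate 2 (-0.78, adjusted p = 0.0602) or DMSO replicate 2 (-0.76, adjusted p = 0.066). Both genes overlap others of the table on the opposite strand, PMEL for CDK2 and MARCH9 and TSPAN31 for CDK4, and the sources used here do not give a strand setting for the counting.

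The other members did not pass in A549. CCNE2 (ENSG00000175305), the less abundant E cyclin, stood at 3.43, 4.43 and 6.46 CPM with DMSO and at 0.618, 0 and 1.63 CPM with RG7112, from 63 and 10 counts, with a log2 fold change of -2.52 (SE 0.75, adjusted p = 0.0883). Its groups did not overlap, and when all 12 samples shared 1 fit its adjusted p was 0.0376. The CCNE2 gene, too, overlaps others of the table on the opposite strand, INTS8 and NDUFAF6. CCND3 (ENSG00000112576, chr6:41934933-42050357) stood at 22.4, 24.9 and 22.1 CPM with DMSO and at 35.8, 46.1 and 31.4 CPM with RG7112, with a log2 fold change of 0.70 (SE 0.22, adjusted p = 0.102). Again the groups did not overlap. CDK6 (ENSG00000105810, chr7:92604921-92836594), the other kinase of the D cyclins, ranged from 19.6 to 33.3 CPM with DMSO and from 36.0 to 46.1 CPM with RG7112, with a log2 fold change of 0.59 (SE 0.253, adjusted p = 0.213). CCNE1 (ENSG00000105173, chr19:29811898-29824308), the more abundant E cyclin, ranged from 39.6 to 78.3 CPM and from 50.8 to 69.9 CPM, with a log2 fold change of 0.05 (SE 0.275, adjusted p = 0.936). For CCNE1, whose groups overlapped, the sign of so small a value turned in some alternatives. Of 9 members tested, 4 passed, all lower, and 3 were DEGs, all lower. Over the 10739 genes tested, 8.38% passed, 3.01% were DEGs lower and 3.18% DEGs higher. The median log2 fold change was -0.81 over the members and -0.01 over all genes.

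**Figure D1:**
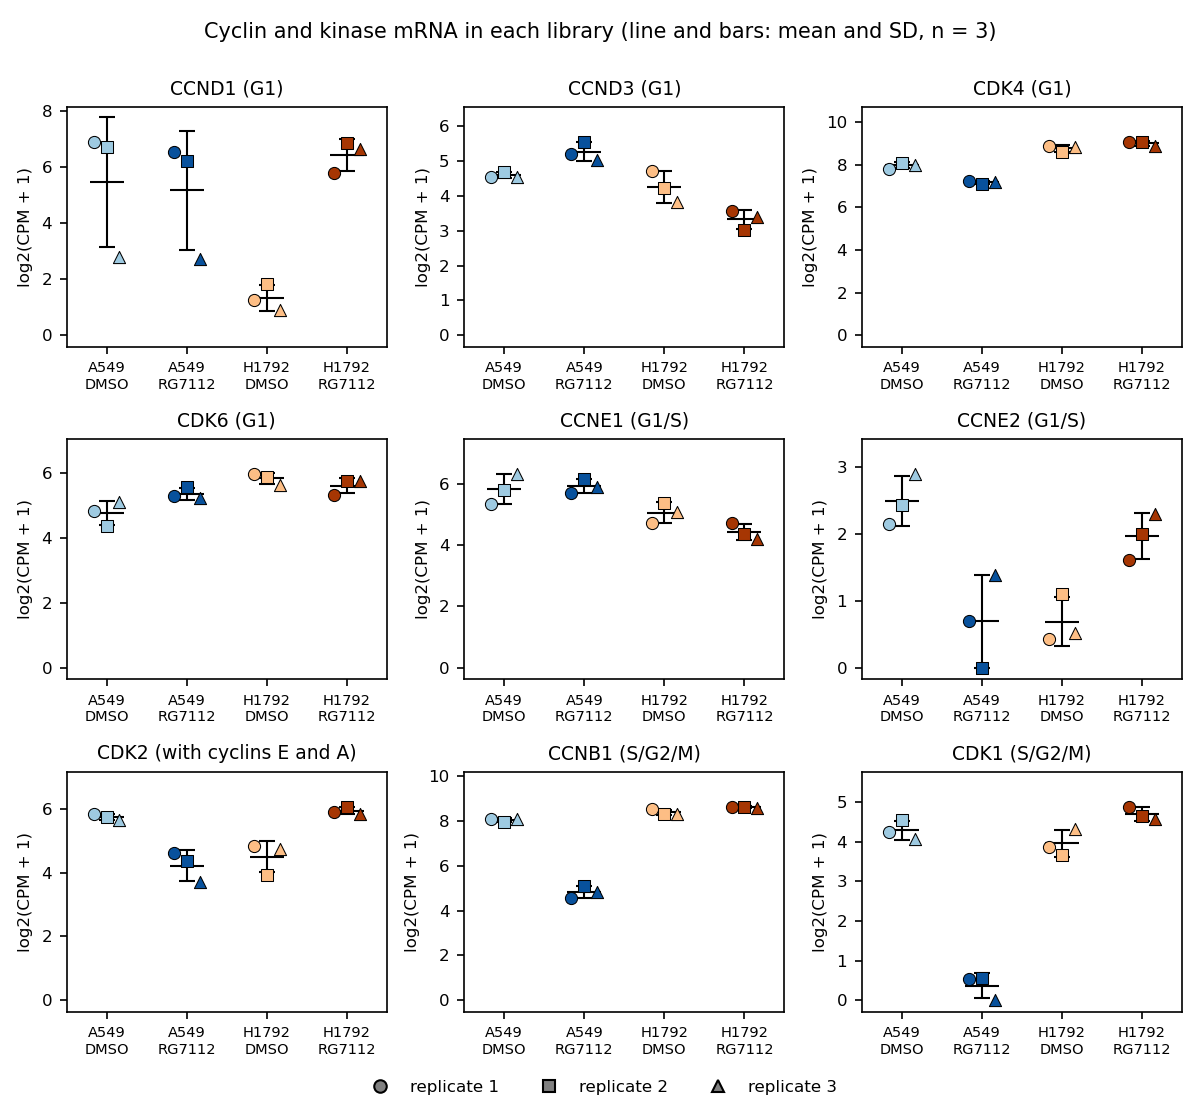
Level of each of the 9 members in all 12 libraries, as log2(CPM + 1) on the vertical axis, by group on the horizontal axis. Marker shapes give the replicate number, and the line and bars give mean and SD (n = 3). CCNB1 and CDK1 are low in the 3 A549 libraries with RG7112 alone, and CCND1 is low in H1792 with DMSO and in replicate 3 of both A549 groups.

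In A549, CCND1 did not pass, and its replicates lay far apart within each treatment. CCND1 (ENSG00000110092, chr11:69641087-69654474), the D cyclin that growth signals raise, stood at 120, 105 and 5.96 CPM with DMSO and at 92.4, 74.6 and 5.69 CPM with RG7112 in A549. Replicate 3 of each treatment was thus far below the other two, at a difference from their mean of -4.02 with DMSO and -3.65 with RG7112 on the log2(CPM + 1) scale. The same difference was lower for 0.111% and 0.24% of the 11666 genes. The log2 fold change in A549 was -0.42 (SE 1.12, adjusted p = 0.866), and without replicate 3 of both treatments it was -0.41 (SE 0.149, adjusted p = 0.158). The part of the split between these libraries in the CCND1 values was not tested.

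In H1792, CCND1 rose the most of the members. Its libraries stood at 1.41, 2.53 and 0.87 CPM with DMSO, from 4, 11 and 2 counts, and at 54.1, 115 and 99.2 CPM with RG7112. Every treated library was above every control library, and the 1287 counts against 17 gave a ratio of 52.0 with a 95% exact binomial interval of 32.3 to 89.5. The log2 fold change was 5.74 (SE 0.448, adjusted p = 0.00272). CCND1 overlaps LTO1 on the opposite strand. The split between the H1792 treatments lay on the same principal component as that between A549 replicate 3 and the other A549 replicates, and the part of that component in the CCND1 result was not tested.

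CDK2 rose in H1792, where it had fallen in A549. It stood at 27.8, 14.3 and 25.7 CPM with DMSO and at 59.3, 66.2 and 56.7 CPM with RG7112, a log2 fold change of 1.51 (SE 0.272, adjusted p = 0.00851). CCNB1 stood at 367, 315 and 322 CPM with DMSO and at 392, 400 and 377 CPM with RG7112, and CDK1 at 13.7, 11.8 and 19.2 CPM and at 28.6, 24.0 and 22.8 CPM. Every treated library lay above every control library for both genes, and the ranges of CCNB1 nearly touched. Both passed as higher without being DEGs, CCNB1 with a log2 fold change of 0.29 (SE 0.087, adjusted p = 0.041) and CDK1 with one of 0.84 (SE 0.244, adjusted p = 0.0385). The log2 fold changes of all genes in H1792 followed GC content (Spearman's rho of -0.481 across 9165 genes, which are not independent replicates), and the longest transcripts have a GC content of 43.2% for CCNB1 and 37.0% for CDK1. With a correction for GC content the values were -0.20 for CCNB1 (adjusted p = 0.099) and 0.12 for CDK1 (adjusted p = 0.782), so neither passed. Without that correction, each passed in 1 of the 6 fits that left out a library, at 0.22 to 0.37 for CCNB1 and 0.66 to 1.06 for CDK1.

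The remaining members of H1792 did not pass. CDK4 stood at 464, 380 and 449 CPM with DMSO and at 538, 535 and 467 CPM with RG7112, with a log2 fold change of 0.32 (SE 0.112, adjusted p = 0.0642), and passed with the GC correction at 0.40 (adjusted p = 0.0444). CCND3 stood at 25.3, 17.7 and 13.1 CPM and at 10.8, 7.10 and 9.52 CPM, with a log2 fold change of -0.96 (SE 0.313, adjusted p = 0.0533). CCND3 passed by DESeq2 (adjusted p = 0.0491) and with at least 10 counts in every sample (adjusted p = 0.0464). It was a DEG when all 12 samples shared 1 fit (-1.04, adjusted p = 0.0221) and without DMSO replicate 3 (-1.16, adjusted p = 0.0467). With the GC correction CCND3 did not pass (-0.76, adjusted p = 0.1105). It passed in 1 of the 6 fits that left out a library and in 3 of 10 other alternatives. The groups of CDK4 and of CCND3 did not overlap. CCNE1 ranged from 25.3 to 40.6 CPM with DMSO and from 17.4 to 25.3 CPM with RG7112, with a log2 fold change of -0.59 (SE 0.226, adjusted p = 0.0863). CDK6 ranged from 48.7 to 61.2 CPM and from 39.2 to 52.95 CPM, with a log2 fold change of -0.14 (SE 0.168, adjusted p = 0.555), and its groups overlapped. CDK6 was -0.79 and passed with the GC correction (adjusted p = 0.00854), and it was 0.12 when libraries were scaled by total count alone. CCNE2 had too few counts to pass the filter, with 7 counts over the controls and 42 over the treated libraries, a ratio of 4.12 (95% exact binomial interval 1.83 to 10.9). It was tested in 6 alternatives and was higher in each, among them at 2.07 (adjusted p = 0.066) when all 12 samples shared 1 fit and at 2.17 (adjusted p = 0.0551) with no filter, and it passed without RG7112 replicate 1 (2.35, adjusted p = 0.042) or DMSO replicate 2 (2.89, adjusted p = 0.0476). Of 8 members tested, 4 passed, all higher, and 2 were DEGs, both higher, when 34.1% of all 9914 genes passed, 10.3% were DEGs higher and 4.34% DEGs lower. The members' median log2 fold change was 0.31, and that of all genes 0.01.

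**Figure D2:**
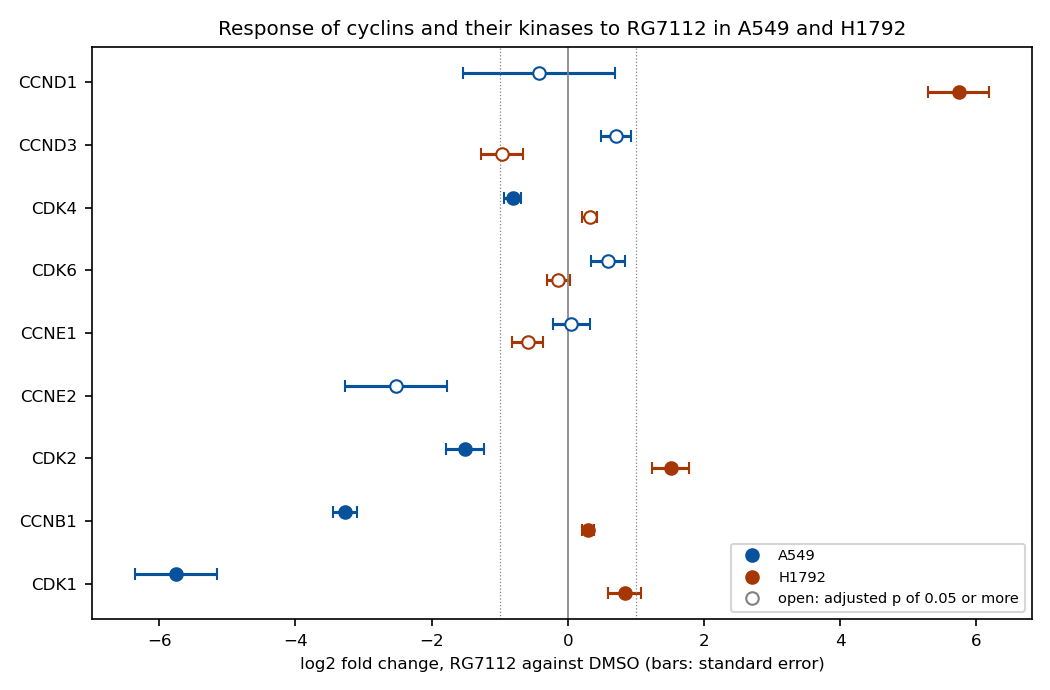
Log2 fold change of each member with RG7112 against DMSO in A549 and in H1792, with standard errors as bars. Filled points had an adjusted p under 0.05, dotted lines mark the DEG threshold, and CCNE2 was not tested in H1792. CDK1 lies at -5.76 in A549 and at 0.84 in H1792, and CCND1 at -0.42 and 5.74.

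The responses of the lines were then set against each other as an interaction over all 12 libraries. Of the 9 members, 7 differed, 6 of them with a lower response in A549 and CCND3 with a higher one. Over all 11666 genes, 21.8% differed. The A549 response minus the H1792 response was -6.51 for CDK1 (SE 0.592, adjusted p = 6.84e-05), -3.49 for CCNB1 (SE 0.183, adjusted p = 1.8e-06) and -2.95 for CDK2 (SE 0.396, adjusted p = 0.000873) on the log2 scale. All 3 passed in every alternative that tested them. It was -1.06 for CDK4 (SE 0.154, adjusted p = 0.00134), -4.59 for CCNE2 (SE 1.03, adjusted p = 0.0112) and 1.74 for CCND3 (SE 0.376, adjusted p = 0.00994). For CCNE2 the call was lost with the GC correction (-3.57, adjusted p = 0.0525). CCND1 differed by -6.08 (SE 1.59, adjusted p = 0.0215), and by -6.07 (adjusted p = 0.000215) without A549 replicate 3. That call was lost without H1792 DMSO replicate 2 (-6.66, adjusted p = 0.0502) or replicate 3 (-5.85, adjusted p = 0.0542), where the difference was of like size. CDK6 at 0.80 (adjusted p = 0.083) and CCNE1 at 0.72 (adjusted p = 0.201) did not pass, while CDK6 did with the GC correction, at 1.64 (adjusted p = 0.00564).

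Before treatment the lines already differed in several members. With DMSO, CCND1 was higher in A549 than in H1792 by 5.51 (SE 1.19, adjusted p = 0.00845) on the log2 scale, CCNE2 by 2.75 (SE 0.54, adjusted p = 0.0056) and CDK2 by 1.28 (SE 0.275, adjusted p = 0.00815), and CDK6 was lower, with a log2 difference of -1.03 (SE 0.221, adjusted p = 0.00809). For CCND1 the A549 libraries stood at 120, 105 and 5.96 CPM, and the H1792 ones held 4, 11 and 2 counts. The CCND1 difference was thus much smaller for A549 replicate 3. CDK4 at -0.75 (adjusted p = 0.00268), CCNB1 at -0.29 (adjusted p = 0.0455) and CCNE1 at 0.84 (adjusted p = 0.0457) passed without being DEGs, and CCND3 and CDK1 did not pass. CCNB1 passed in 2 and CCNE1 in 1 of 7 fits with libraries left out, and CCNB1 had an adjusted p of 0.598 with library size only and CCNE1 one of 0.132 with the GC correction. CDK6 kept an adjusted p under 0.05 throughout, but its fold was under the DEG threshold with library size only (-0.82), with at least 10 counts in every sample (-0.93), without A549 DMSO replicate 2 (-0.84) and without H1792 DMSO replicate 1 (-0.98), while CDK4 was a DEG with the GC correction (-1.02). Of 9 members, 7 passed in the fit to all these libraries, with 3 DEGs higher and 1 lower in A549, when 49.7% of all 10330 genes passed, 20.6% were DEGs higher and 14.8% DEGs lower.

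The order of the levels was compared per kilobase of each gene's longest transcript. In A549 with DMSO, CCNB1 led at 122 ± 7.22 CPM per kilobase (SD, n = 3), followed by CDK4 at 120 ± 11.4, which overlapped it. CCNE1 at 28.1 ± 9.57, CDK2 at 20.3 ± 1.17 and CCND1 at 17.9 ± 14.4 CPM per kilobase came next, below CDK4 and without overlap with it, and each overlapped the next in that order. With RG7112, CDK4 led A549 at 68.3 ± 2.52 CPM per kilobase, CCNB1 stood at 12.8 ± 2.44, level with CCND1 within their spread, and CDK1 at 0.161 ± 0.139 and CCNE2 at 0.225 ± 0.246 were lowest and overlapped. In H1792, CDK4 led and CCNB1 came second in both groups, with ranges that did not overlap, at 208 ± 21.5 and 154 ± 12.9 CPM per kilobase with DMSO and at 247 ± 19.3 and 180 ± 5.34 with RG7112. CCNE2 was lowest in both H1792 groups and overlapped CCND1 with DMSO.

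The balance within the 3 pairs of related genes was compared as the log2 ratio of counts per kilobase, with 0.5 added to each count. CCND1 made up 74.8%, 70.0% and 13.2% of the sum of CCND1 and CCND3 in A549 with DMSO and 58.9%, 47.3% and 9.30% with RG7112. In H1792 it made up 3.34%, 7.62% and 4.36% with DMSO and 73.4%, 89.9% and 85.1% with RG7112. Of these 2 D cyclins, the higher in H1792 was thus CCND3 in every control library and CCND1 in every treated one. The change in log2 ratio was 6.68 (exact permutation p = 0.1, two-sided), with 4, 11 and 2 CCND1 counts in the controls. CCND2 was not part of the comparison. For CCNE1 against CCNE2, the log2 ratio went from 6.12 to 3.47 in H1792 (exact permutation p = 0.1). In A549 it was 4.18, 4.29 and 4.28 with DMSO and 6.90, 8.91 and 5.76 with RG7112 (exact permutation p = 0.1), but CCNE2 had 4, 0 and 6 counts in the treated libraries, so the 8.91 is set by the 0.5 added to a count of 0. The mean change there was 2.94, with 2.08 to 3.66 when 1 library was left out and 2.15 with 2 added to each count, and its size is not well fixed. For CDK4 against CDK6 it moved from 5.73 to 4.31 in A549 (exact permutation p = 0.1) and from 5.43 to 5.91 in H1792 (exact permutation p = 0.2). CCND1 against CCND3 in A549 gave a change of -0.999 (exact permutation p = 0.5). With 3 samples against 3, the smallest p is 0.1, and over the 6 tests the smallest Benjamini-Hochberg adjusted value was 0.15.

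**Figure D3:**
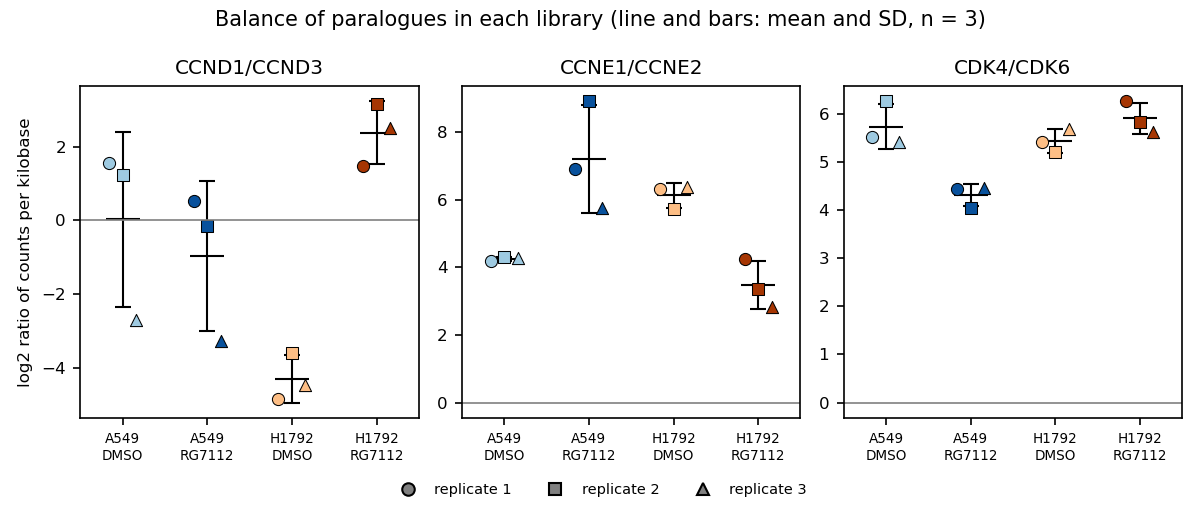
Log2 ratio of counts per kilobase for CCND1 to CCND3, CCNE1 to CCNE2 and CDK4 to CDK6 in each library, by group, with mean and SD as line and bars (n = 3). The CCND1 to CCND3 ratio is below 0 in all H1792 libraries with DMSO and above 0 in all with RG7112, and it splits the A549 replicates.

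Genes that act on these complexes were counted by list, and their shares are read against the 8.38% of all genes that passed in A549 and the 34.1% in H1792. Among genes that phosphorylate or dephosphorylate the kinases or bind them as CKS subunits, 4 of 6 tested fell in A549 and 0 rose (0 also by DESeq2, by limma and at an unadjusted p under 0.05), with a median log2 fold change of -2.56. PKMYT1, a kinase that inhibits CDK1, had a log2 fold change of -2.79 (adjusted p = 0.0013). CDKN3, a phosphatase of CDKs, had one of -3.30 (adjusted p = 0.0234) and CDC25B, a phosphatase that activates them, one of -0.91 (adjusted p = 0.0143). In H1792, 2 of 6 rose, CDC25C, also an activating phosphatase, with 0.95 (adjusted p = 0.0391) and WEE1, another inhibitor of CDK1, with 0.86 (adjusted p = 0.0461), and the list's median was -0.18. With the GC correction or by DESeq2, 0 of the 6 rose in H1792, and with the GC correction 1 fell.

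Among genes of cyclin ubiquitination, 4 of 16 tested fell in A549 and 0 rose (0 also by DESeq2, by limma and at an unadjusted p under 0.05), with a median of -0.55. CDC20, which brings cyclin B1 to the anaphase-promoting complex, had a log2 fold change of -4.51 (adjusted p = 0.00197), and the ubiquitin-conjugating enzymes UBE2C and UBE2S had -4.31 (adjusted p = 0.0217) and -2.40 (adjusted p = 0.00206). In H1792, 2 of 17 rose and 3 fell, with a median of 0.28. CDC27, a subunit of that complex, was at 1.38 (adjusted p = 0.00859), CDC20 at -0.87 (adjusted p = 0.0128) and UBE2S at -0.58 (adjusted p = 0.00389). With the GC correction, 1 rose and 5 fell.

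Of the CDK inhibitors, 1 of 3 tested rose in A549. CDKN1A stood at 24.1 to 44.9 CPM (median 42.4) with DMSO and at 189 to 939 CPM (median 202) with RG7112. The log2 fold change was 3.58 (SE 0.705, adjusted p = 0.0252), and its size rests largely on the treated library at 939 CPM. No inhibitor passed in H1792 by edgeR, DESeq2 or limma (1 of 3 at an unadjusted p under 0.05), where CDKN1A had a log2 fold change of 0.15 (adjusted p = 0.882). The medians of these 3 genes were -0.10 in A549 and 0.15 in H1792.

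A further list held other cyclins and cyclin-dependent kinases, with CABLES1 and CABLES2. Of its genes, 0 of 15 tested passed in A549 by edgeR, DESeq2 or limma (2 at an unadjusted p under 0.05, 1 higher and 1 lower). The median was 0.06, and 1 passed as lower with the GC correction. In H1792, 3 of 14 rose (2 with the GC correction), with a median of 0.08, namely CDK17 at 2.31 (adjusted p = 0.00954), CCNG1, a p53 target, at 1.49 (adjusted p = 0.0126) and CCNY at 1.22 (adjusted p = 0.0317). CCNG1 was at 0.17 in A549 and did not pass there (adjusted p = 0.817). Of the cyclins and kinases that act in transcription, 1 of 18 rose in A549, CCNK, the partner of CDK12 and CDK13, at 0.91 (adjusted p = 0.0237), and the median was -0.10. In H1792, 7 of 18 rose and 1 fell, with a median of 0.37, and with the GC correction 4 rose and 3 fell. CCNT1, a cyclin of the elongation factor P-TEFb, was at 2.76 (adjusted p = 0.00579), CDK12 at 1.22 (adjusted p = 0.00428) and CDK13 at 0.88 (adjusted p = 0.00981).

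**Figure D4:**
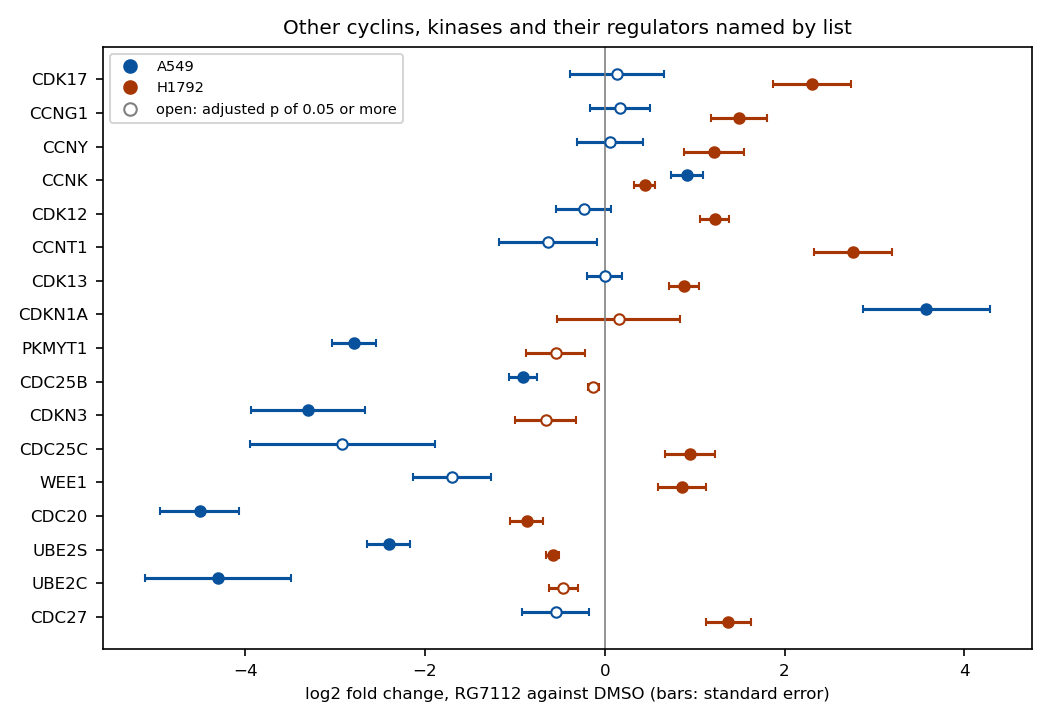
Log2 fold change with RG7112 against DMSO, with standard errors as bars, of the other cyclins, kinases and regulators named by list, in A549 and H1792. Filled points had an adjusted p under 0.05. PKMYT1, CDKN3, CDC20, UBE2S and UBE2C lie lower in A549 than in H1792, and CDKN1A lies at 3.58 in A549 and 0.15 in H1792.

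The gene with the profile nearest to each member over the 12 libraries was found by the root mean square difference of log2 values centred on each gene's mean, among 11666 genes. It was PBK for CDK1 (0.27, where CDK1 itself varied by 1.74), FAM72C for CCNB1 (0.25 of 1.54) and CEP97 for CDK2 (0.25 of 0.80). For the G1 genes it was AHCYL1 for CCND1 (0.41 of 2.35), APC2 for CCND3 (0.25 of 0.74), FGFR1OP2 for CDK4 (0.14 of 0.73) and NEXN for CDK6 (0.21 of 0.45). For the E cyclins it was SELENOW for CCNE1 (0.16 of 0.66) and EEF1G for CCNE2 (0.43 of 0.88).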

How the data were processed

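Estimated counts per gene (expected counts) were deposited by the authors as whole numbers with no normalization between samples. Per the labels and the study's methods they came from kallisto 0.45.0 on Ensembl transcripts of GRCh38, added up to genes. The labels and the methods differ on read length and instrument, and the column names give another dose than the labels, whose 1 µM was used. The p53 status follows most of the paper's text, since its sentence on the RNA-seq design gives it the other way round. All 12 columns were used.

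Groups came from the labels. In R 4.3.3, edgeR 4.0.16 kept genes by filterByExpr (minimum count 10, minimum total 15), normalized by TMM and ran robust quasi-likelihood tests with Benjamini-Hochberg adjustment over all genes tested, for each line, for the interaction and for the lines with DMSO. The thresholds (adjusted p under 0.05, log2 fold change beyond 1) follow the study. Alternatives included other scalings and filters, limma 3.58.1, DESeq2 1.42.0, a loess correction for GC content (span 0.5), the replicate number as a block and leaving out each library, and ratios were compared by exact permutation tests in scipy 1.17.1. Symbols, lengths and GC content came from GENCODE v29, which matched 18011 of 20595 identifiers. Scripts were tested on simulated data, where changes in the interaction were recovered less often than changes of the same size in the other comparisons. No pair of replicates agreed within sampling noise (chi-square of 5.12 to 23.3 per degree of freedom). Named were the members, per list and line at most the 3 genes with the smallest p among those that passed, and the gene nearest to each member. Members and lists were chosen with earlier results of these data known. Intervals cover counting error only.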

Additional observations from a re-analysis of the deposited data

Results flagged for a closer look

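For 7 of the 9 members the response to RG7112 differed between A549 and H1792 by the interaction test of edgeR, when 21.8% of all 11666 genes differed. The A549 response minus the H1792 response on the log2 scale was -6.51 for CDK1, -6.08 for CCND1, -4.59 for CCNE2, -3.49 for CCNB1, -2.95 for CDK2, -1.06 for CDK4 and 1.74 for CCND3. CDK2 was a DEG in both lines, lower in A549 and higher in H1792. The CCND1 difference rests on 17 counts over the H1792 controls and on A549 groups in which replicate 3 stood far below the others, and the CCNE2 difference on 7 counts over the H1792 controls and 10 over the treated A549 libraries.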

How the results depend on the processing

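Single-gene values of the members kept their direction and their call in 611 alternatives, gained a call in 20, lost it in 11 and changed sign in 8. A call was a DEG, or an adjusted p under 0.05 in the difference and in the alternative with no fold threshold. That alternative reused the main fits, so no direction could change there and calls could only be gained. A call gained or lost does not mean that the log2 fold change became larger or smaller. The reversals in A549 were CCNE1 (0.34 without DMSO replicate 3 and 0.35 without replicate 3 of both treatments) at -0.0023 with the GC correction, -0.07 without RG7112 replicate 2 and -0.16 without DMSO replicate 1, and CCND1 (-0.97 at the lowest, without RG7112 replicate 1) at 0.13 without RG7112 replicate 3 and 0.04 without DMSO replicate 1. In H1792 they were CDK6 at 0.12 with library size only and CCNB1 at -0.20 with the GC correction, alone or with the replicate block. With at least 10 counts in every sample, 1 member was called in H1792, 4 in the difference and 1 between the lines with DMSO (2126 DEGs). CCND1 and CCNE2, and in the difference also CDK1, were not tested there, and CDK6 between the lines was tested but at -0.93 no longer beyond the fold threshold. With no fold threshold the members called were 4 in H1792 (3384 genes) and 7 between the lines. Leaving out libraries gave 310 to 526 DEGs in A549 (665 with all, 654 without replicate 3 of both treatments), 920 to 1642 in H1792 (1450 with all), 1584 to 2978 genes in the difference (2539 with all) and 3134 to 4041 between the lines (3665 with all), with 2 to 3, 2 to 4, 6 to 8 and 3 to 5 members called. The CCND1 to CCND3 change in A549 ranged from -2.37 to 0.156, the latter without RG7112 replicate 3. To look for pairing, each library's deviations from its group mean were correlated between the 2 treatments. These correlations do not measure how alike whole libraries were. For same-numbered libraries they were 0.0609 to 0.273 in A549 and -0.0238 to 0.00346 in H1792. For differently numbered ones they were -0.209 to 0.136 in A549 and -0.0156 to 0.0177 in H1792. The 0.273 was that of replicate 3, which stood apart in both A549 treatments. The numbers were not taken as pairs in the main fits. The replicate block gave 612 DEGs in A549, 995 in H1792, 2357 genes in the difference and 3427 DEGs between the lines, with 3, 2, 7 and 4 members called. In H1792 CCNB1 (adjusted p = 0.0992) and CDK1 (adjusted p = 0.0857) did not pass with the block. CCND1 with the block was at -0.35 in A549 (SE 0.154, adjusted p = 0.219). Its difference between the lines was then -6.06 (SE 0.345, adjusted p = 0.000409). With block and GC correction together there were 543 DEGs in H1792 and 1634 genes in the difference; the cause was not tested. Depth limits CCND1 and CCNE2 in H1792 controls and CDK1 and CCNE2 in treated A549, which lie near the floor of 3 counts.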
